A study of Homo sapiens with 4 samples.

Results

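The genes described here are 10 members of the basic leucine zipper (bZIP) group of transcription factors: FOS, FOSB, FOSL1, FOSL2, JUN, JUNB, JUND, ATF3, MAFF and BATF3. The set is a list of names with no threshold on values, and all 10 were found among 57891 annotated genes with rows in the deposited tables. Poly(A) RNA was sequenced from AC16, an established human cell line that the labels call a cardiomyocyte line. One untreated library stands for 0 min, and the 3 others are from cells kept with the anthracycline doxorubicin at 10 nM for 10, 30 or 360 min. The treated cells were taken out of medium with serum, rinsed and given the drug in serum-free DMEM. Whether the untreated cells were also moved to new medium is not stated. The drug, the change of medium and the loss of serum therefore cannot be told apart in any comparison with 0 min.

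With 1 library per time there are no replicates, so no p-value is given. The 4 libraries hold 55156612 to 56875881 deposited counts, taken here as 13789153 to 14218970 read pairs at 4 counts a pair. A level is given in counts per 1000000 counts of its library (CPM), and the range in brackets after a ratio is its 95% exact counting interval, which covers counting error only. In a bulk library, fewer cells that make an RNA and less of it per cell cannot be told apart. Of 16 cardiomyocyte markers 8 stayed below 1 CPM in every library, among them the sarcomere genes TNNT2, MYH6, MYH7 and ACTN2, and ACTC1 and PLN had no count at all. Fibroblast and matrix markers summed to between 12589 and 19888 CPM, highest at 10 min. Of these 15 markers 10 reached 1 CPM in a library, whereas COL3A1, THY1, LUM, DCN and POSTN stayed below it in all.

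AP-1 is a dimer of bZIP proteins. Each partner has a basic stretch that touches DNA and a leucine zipper that joins it to the other. JUN proteins pair with each other or with FOS proteins, whereas FOS proteins need a JUN partner, and the dimers bind TGACTCA. Binding of related dimers, such as those with ATF or CREB proteins, prefers TGACGTCA. FOS, FOSB and JUNB are classical immediate early genes, switched on by serum, growth factors and stress through MAP kinases without new protein synthesis, and their RNAs are short-lived. ATF3 is a stress-induced factor, MAFF is a small MAF protein with no activation domain of its own, and BATF3 is best known from dendritic cells.

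The promoters are shown because FOS, FOSB and JUNB were high together at 10 and 30 min, with JUND beside them as a family member that stayed short of 2-fold. RefSeq windows on GRCh38.p14, each from 250 bases before to 50 after a start site, were found for 8 of the 10 genes (10 windows), and FOSL1 and BATF3 were not matched. The 150 bases before the first annotated start are printed 5′ to 3′ on the gene's strand, with capitals marking TGACG or its reverse complement, the core shared by CREB and ATF sites.
FOS, chr14:75278624-75278773, plus strand: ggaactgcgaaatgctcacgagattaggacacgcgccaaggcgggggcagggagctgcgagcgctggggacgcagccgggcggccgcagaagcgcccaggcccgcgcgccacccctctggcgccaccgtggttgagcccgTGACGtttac
FOSB, chr19:45467845-45467994, plus strand: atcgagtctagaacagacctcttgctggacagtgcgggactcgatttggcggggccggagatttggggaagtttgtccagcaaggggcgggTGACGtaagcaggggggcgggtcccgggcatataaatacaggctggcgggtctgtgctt
JUNB, chr19:12791336-12791485, plus strand: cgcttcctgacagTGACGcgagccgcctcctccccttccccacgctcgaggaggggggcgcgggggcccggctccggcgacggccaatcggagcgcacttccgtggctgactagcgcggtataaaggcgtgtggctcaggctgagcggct
JUND, chr19:18281623-18281772, minus strand: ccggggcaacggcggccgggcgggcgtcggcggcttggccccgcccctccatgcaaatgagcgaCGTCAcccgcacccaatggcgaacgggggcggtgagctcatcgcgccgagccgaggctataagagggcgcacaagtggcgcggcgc
For 3 further genes a longer match lies inside or next to annotated transcripts, and 30 bases around it are shown with the match in capitals.
JUN, chr1:58784096-58784125, minus strand: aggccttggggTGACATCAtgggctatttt
MAFF, chr22:38201929-38201958, plus strand: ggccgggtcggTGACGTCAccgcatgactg
FOSL2, chr2:28392850-28392879, plus strand: gtgccattgtagTGACTCAtctcgggcaga

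The letters TGACG occurred on either strand in 7 of the 10 windows, 1 each for FOS, FOSB, FOSL2, JUN, JUNB, JUND and MAFF. Of all 35116 windows 24.6% held them. A full TGACGTCA, which contains TGACG, occurred for JUND and MAFF (1.85% of windows). TGACATCA, the variant AP-1 site known from the JUN promoter, occurred for JUN and in 1 of the 2 ATF3 windows (2.61%), and TGACTCA for FOSL2 (4.95%). TATAAA was found in 1 window each of ATF3, FOS, FOSB and JUNB (11.5%), and GGGCGG in 8 of the 10 windows, from 7 genes (45.0%). The CArG box of serum response factor was found for none (1.29%). The windows reach only 250 bases upstream, so a CArG box farther from the start would be missed, and its absence from these promoters is not shown. Neither ATF3 window lies at 212608670 or 212608628 on chromosome 1, where its most counted transcripts start. A match describes letters in these windows and is no evidence of binding.

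The 3′ UTRs bear on the same genes, since AU-rich elements are known to shorten the life of immediate early RNAs. The element searched was TTATTTATT on the transcript strand, in the most counted coding transcript of each gene in GENCODE 29 (GRCh38), and it is in capitals below.
FOS, chr14:75282060-75282089, plus strand: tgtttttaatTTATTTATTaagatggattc
MAFF, first copy, chr22:38215914-38215943, plus strand: tccccactgtTTATTTATTgcacggatcta
MAFF, second copy, chr22:38216403-38216432, plus strand: ctcctagaatTTATTTATTtcctgacttac
FOSL2, chr2:28416355-28416384, plus strand: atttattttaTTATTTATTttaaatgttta
FOS-201 held 1 such element in 806 bases, where 4.97% of other genes with a UTR of similar length had any. MAFF-201 held 2 in 1633 bases (8.01% of genes of similar length had any), and FOSL2-201 held 1 in 4864 bases (23.7%). The other 7 genes had none. Of the shorter ATTTA, FOS had 5 copies, JUN 3, JUNB 2, ATF3 3 and MAFF 4, where the medians for UTRs of similar length were 1, 2, 1, 2 and 3. FOSB had 3 and FOSL2 9, below medians of 5 and 11, FOSL1 and JUND had 1, at a median of 1, and BATF3 had 1, at a median of 0.

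The early pattern was led by FOS, the founding partner of JUN in AP-1 (ENSG00000170345, GRCh38 chromosome 14, 75278774 to 75282230). It stood at 0.404 CPM at 0 min, 8.58 at 10 min, 24.2 at 30 min and 0.381 at 360 min. Both end libraries were thus near the floor of detection, and the 10 and 30 min libraries lay far above them with no overlap. The 0 min and 360 min values rest on about 5.75 and 5.25 read pairs, against 119 and 334 pairs at 10 and 30 min. FOS was 21.2-fold (9.05 to 56.4) higher at 10 min and 59.7-fold (26.0 to 157) higher at 30 min than at 0 min. It was 2.81-fold (2.28 to 3.51) higher at 30 than at 10 min, and 63.4-fold (28.3 to 207) lower at 360 than at 30 min. Against 0 min the 360 min ratio was 0.942 (0.207 to 3.38), an interval wide enough that a difference was not detectable at this depth.

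FOSB, a close relative of FOS (ENSG00000125740, chromosome 19, 45467995 to 45475179), was likewise highest at 30 min and next highest at 10 min, at a much lower level. It stood at 0.141, 0.827, 1.99 and 0.562 CPM at 0, 10, 30 and 360 min, or about 2, 11.5, 27.5 and 7.75 read pairs. It never reached 5 CPM, the minimum set for calling a difference. Its ratio to 0 min was 5.88 (1.37 to 56.5) at 10 min, 14.1 (3.63 to 125) at 30 min and 4.00 (0.823 to 39.9) at 360 min. The intervals at 10 and 30 min lay above 1, and that at 360 min did not. The FOSB levels at 10 min (0.446 to 1.51 CPM) and 360 min (0.250 to 1.14 CPM) overlapped in their counting intervals.

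JUNB, the JUN protein that often opposes JUN (ENSG00000171223, chromosome 19, 12791496 to 12793315), stood at 47.3, 108, 123 and 43.4 CPM at 0, 10, 30 and 360 min. The 10 and 30 min libraries were high and the other pair low, with no overlap of their counting intervals. JUNB was 2.29-fold (2.09 to 2.51) higher at 10 min and 2.59-fold (2.37 to 2.84) higher at 30 min than at 0 min. From 30 to 360 min it was 2.83-fold (2.57 to 3.11) lower, and its 360 min ratio to 0 min was 0.918 (0.821 to 1.03). JUNB shares 14.2% of its exon bases with HOOK2 on the other strand, and whether strand was used in counting is not given in the sources used here. HOOK2 had 1308, 1964, 1349 and 1010 counts at the 4 times, against 2688, 6023, 6779 and 2394 for JUNB.

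**Figure D1:**
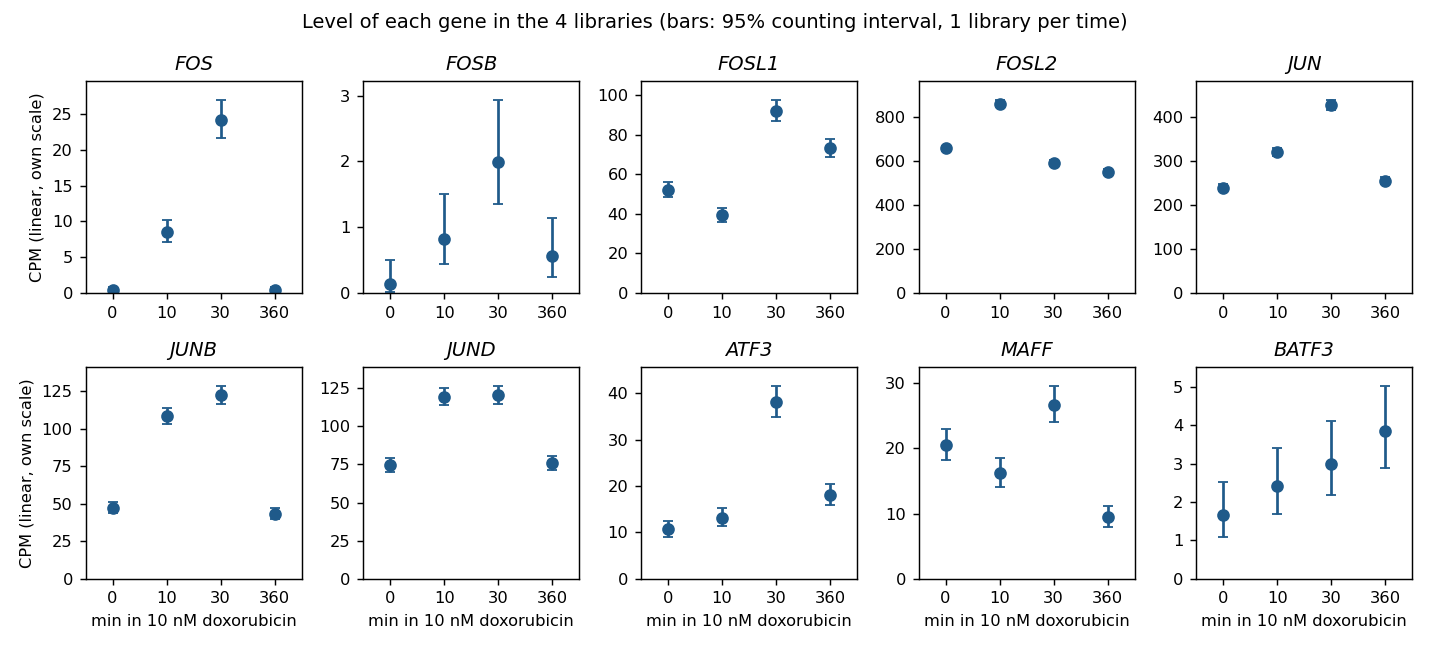
Level of each of the 10 genes in CPM (vertical axis, linear, each panel with its own scale from 0) by minutes in 10 nM doxorubicin (horizontal axis, equally spaced). Points are single libraries and bars are 95% counting intervals; FOS, FOSB and JUNB were highest at 30 min and low at 0 and 360 min, while BATF3 was highest at 360 min.

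JUN, the partner of most AP-1 dimers (ENSG00000177606, chromosome 1, 58780788 to 58784327), moved the same way by less. It stood at 239.8, 321, 427 and 256 CPM at 0, 10, 30 and 360 min. Its ratio to 0 min was 1.34 (1.28 to 1.40) at 10 min, 1.78 (1.71 to 1.86) at 30 min and 1.07 (1.02 to 1.12) at 360 min. JUND, the JUN protein usually present in resting cells (ENSG00000130522, chromosome 19, 18279760 to 18281622), stood at 74.7, 119, 121 and 76.0 CPM. Its ratios were 1.60 (1.48 to 1.73) and 1.61 (1.49 to 1.74) at 10 and 30 min and 1.02 (0.933 to 1.11) at 360 min. All 3 JUN genes were thus higher at 10 and 30 min than at both ends, and of them JUNB alone passed 2-fold. The share of all genes with such a course was not counted, here or for FOS. JUN and JUNB have a single annotated transcript of 1 exon each, and JUND-201, also of 1 exon, held 99.7% to 99.9% of JUND, so these values hardly depend on how reads were shared among transcripts.

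The FOS-like antigens behaved unlike FOS. FOSL2, also called FRA2 (ENSG00000075426, chromosome 2, 28392448 to 28417312), was the most counted of the 10 genes at 657, 860.3, 591 and 550.1 CPM. Its ratios to 0 min were 1.31 (1.27 to 1.35), 0.900 (0.873 to 0.927) and 0.837 (0.812 to 0.863), high at 10 min and slightly low afterwards. FOSL1, or FRA1 (ENSG00000175592, chromosome 11, 65892049 to 65900573), stood at 52.1, 39.4, 92.0 and 73.3 CPM. It was lowest at 10 min, with a ratio to 0 min of 0.756 (0.676 to 0.846), and highest at 30 min, at 1.77 (1.61 to 1.94). From 10 to 30 min it was 2.34-fold (2.11 to 2.59) higher, past the 2-fold mark that a call needs. At 360 min its ratio to 0 min was 1.41 (1.28 to 1.55), so FOSL1 stayed above its start. JUNB no longer did, and for FOS the interval was too wide for a comparison.

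FOSL1 is the only 1 of the 10 loci with a transcript model that the authors' assembly added to the annotation. That model had 13.3, 13.5, 58.1 and 14.4 CPM at 0, 10, 30 and 360 min, 38.7% of the locus at 30 min and 16.5% to 25.6% at the other times. With it the FOSL1 locus stood at 65.4, 52.9, 150.1 and 87.7 CPM. The ratio of 30 to 0 min then became 2.30 (2.12 to 2.48), past 2-fold, and that of 360 to 30 min 0.584 (0.544 to 0.628). For the other 9 genes the locus and the summed annotated transcripts held the same counts. Among the 9888 genes of at least 5 CPM that matched a locus, 68.0% had no added model.

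ATF3, which dimerises with JUN proteins or itself (ENSG00000162772, chromosome 1, 212565334 to 212620777), was also highest at 30 min, but its 10 min level was close to that at 0 min. It stood at 10.7, 13.2, 38.2 and 18.1 CPM at 0, 10, 30 and 360 min. The 10 min ratio to 0 min was 1.23 (0.988 to 1.54). At 30 min ATF3 was 3.58-fold (2.98 to 4.31) higher than at 0 min and 2.90-fold (2.45 to 3.45) higher than at 10 min. It was 2.12-fold (1.82 to 2.47) lower at 360 than at 30 min, and its 360 min ratio to 0 min was still 1.69 (1.38 to 2.08).

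MAFF (ENSG00000185022, chromosome 22, 38200767 to 38216511) was the 1 gene lower at 360 min than at 0 min by the rule. It stood at 20.4, 16.2, 26.7 and 9.45 CPM. At 360 min it was 2.16-fold (1.76 to 2.69) lower than at 0 min and 2.83-fold (2.31 to 3.49) lower than at 30 min. Its ratios to 0 min at 10 and 30 min were 0.793 (0.662 to 0.945) and 1.31 (1.12 to 1.53). BATF3 (ENSG00000123685, chromosome 1, 212686418 to 212699985) stood at 1.67, 2.41, 3.00 and 3.84 CPM, below the minimum for a call, with its highest value at 360 min. Its 360 min ratio was 2.30 (1.38 to 3.86), and those at 10 and 30 min were 1.44 (0.835 to 2.55) and 1.80 (1.07 to 3.11).

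**Figure D2:**
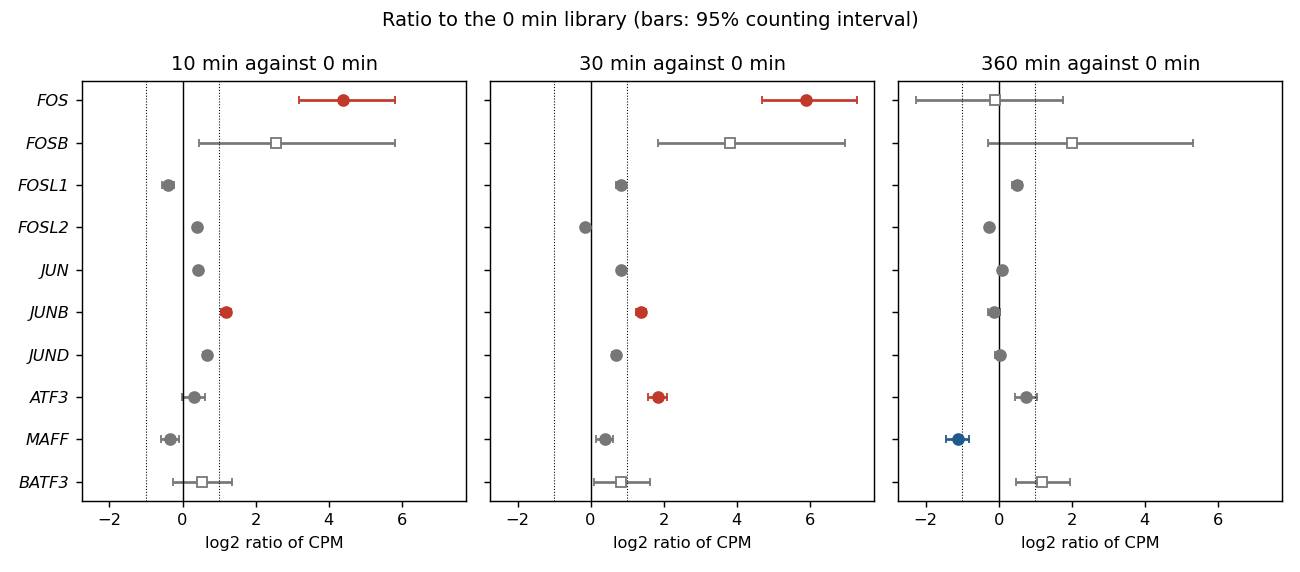
Log2 ratio of CPM to the 0 min library for each gene (horizontal axis) at 10, 30 and 360 min, with 95% counting intervals; dotted lines mark 2-fold. Filled red points were called higher and blue lower, grey circles were tested and not called, and open squares stayed below 5 CPM in both libraries; FOS lies farthest to the right at 10 and 30 min and MAFF is the 1 gene called lower at 360 min.

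A gene was called by a size rule: its ratio had to reach 2-fold, its interval had to leave out 1, and the higher library had to hold at least 5 CPM. At 10 min 8 of the 10 genes had enough counts, and 2 of them (FOS and JUNB) were called higher, where 7.69% of all 11892 tested genes were. None was called lower, against 6.85% of all tested genes. FOS reached the minimum only through the libraries in which it was high. The median log2 ratio over all 10 genes was 0.47, beside -0.035 over all genes tested. In the 10 min library 14.5% of all tested genes were called in either direction, the most of the 3 comparisons with 0 min.

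At 30 min 3 of 8 tested genes were called higher than at 0 min (FOS, JUNB and ATF3), against 3.55% of 11533 tested genes, and none lower, against 3.25%. In either direction 6.8% of all tested genes were called. The median over the 10 genes was 0.84, beside -0.0078 over all genes. At 360 min no gene of 7 tested was called higher, against 3.26% of 11511, and 1 was called lower (MAFF), against 3.34% (6.59% in either direction). The median was then 0.059, beside 0.0089. These 3 comparisons share the 0 min library, so they are not independent of each other.

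Between successive libraries the calls were as follows. From 10 to 30 min 3 of 8 tested genes were called higher (FOS, FOSL1 and ATF3), against 6.86% of 11902 tested genes, and none lower, against 7.54% (14.4% in either direction). From 30 to 360 min 4 of 8 were called lower (FOS, JUNB, ATF3 and MAFF), against 3.49% of 11502, and none higher, against 3.26% (6.75% in either direction). In that last step the median log2 ratio over the 10 genes was -0.91, beside 0.0073 over all genes tested. BATF3 stood at 1.28 (0.828 to 1.94).

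**Figure D3:**
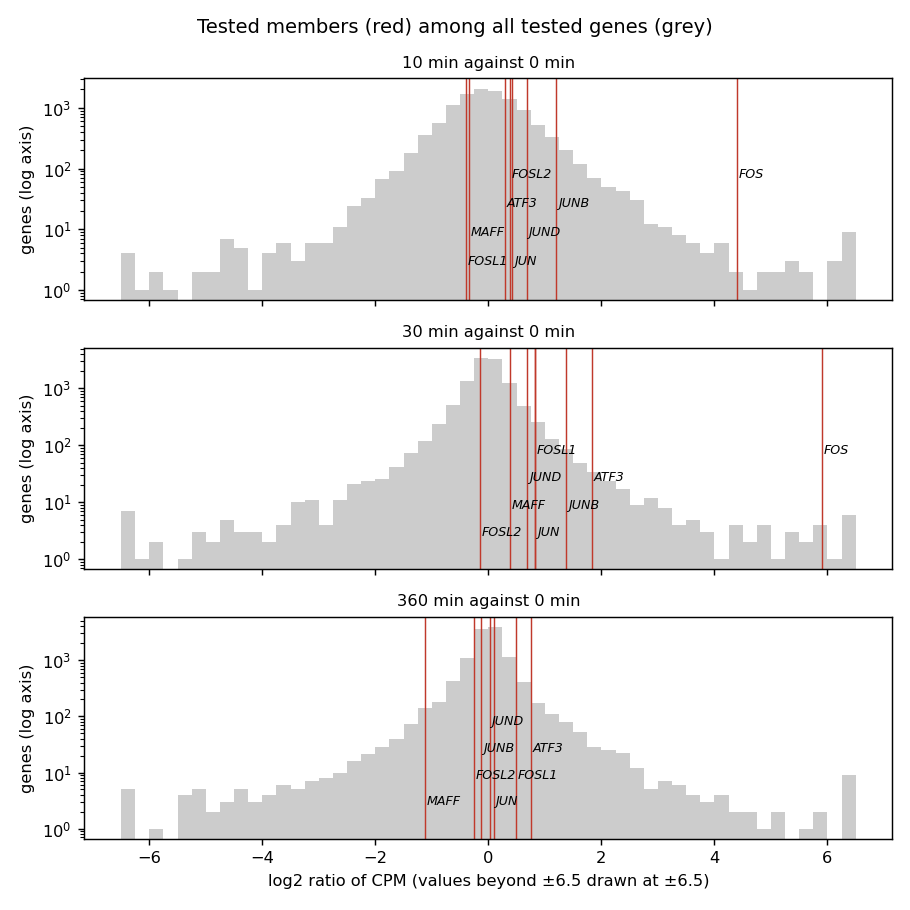
Histogram of log2 ratios of CPM to 0 min over all tested genes (grey, number of genes on a log axis) at 10, 30 and 360 min, with the tested members as labelled red lines. At 30 min FOS, ATF3 and JUNB lie beyond a log2 ratio of 1, whereas at 360 min MAFF alone lies below -1.

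Levels of different genes were compared per length, as TPM, counts divided by annotated transcript length and scaled to a sum of 1000000 in each library. Only annotated transcripts enter, so FOSL1 is without its assembled model, which held 38.7% of its locus at 30 min. The place of FOSL1 in the order is uncertain for that reason, most of all at 30 min. At 0 min the order was FOSL2 (229 TPM), JUN (155), JUND (92.2), FOSL1 (76.2), JUNB (59.5), MAFF (18.9), ATF3 (12.3), BATF3 (3.96), FOS (0.854) and FOSB (0.0854). No neighbours in that order overlapped in their counting intervals. At 30 min JUN (274 TPM) stood above FOSL2 (206), followed by JUNB (153), JUND (147) and FOSL1 (139). JUNB and JUND overlapped in counting error there, as did JUND and FOSL1, and so did ATF3 (45.3) and FOS (41.5). MAFF (24.5), BATF3 (6.85) and FOSB (1.59) closed the order. At 10 min FOSL2 (306 TPM) and JUN (212) led, JUND (151) and JUNB (139) overlapped, and ATF3 (16.6), FOS (16.3) and MAFF (15.3) could not be ordered beyond counting error. At 360 min the order ran from FOSL2 (194), JUN (166), FOSL1 (112), JUND (94.1) and JUNB (54.7) through ATF3 (21.4) to BATF3 (8.90) and MAFF (8.83), with FOS (0.801) and FOSB (0.670) last. BATF3 and MAFF overlapped there, and so did FOS and FOSB.

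The 10 genes together came to 648 TPM at 0 min, 924 at 10 min, 1038 at 30 min and 661 at 360 min. This sum and the shares below also leave out the assembled FOSL1 model. FOSL2 made up 35.3%, 33.1%, 19.8% and 29.3% of that sum, and FOS 0.132%, 1.76%, 4.00% and 0.121%. The 3 JUN genes made up 47.4% of the sum at 0 min, 54.4% and 55.3% at 10 and 30 min, and 47.6% at 360 min. The 4 FOS-family genes made up 47.2%, 41.5%, 37.3% and 46.5%. Even at its highest, FOS RNA was thus a small part of the FOS family, most of which was FOSL2 and FOSL1.

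**Figure D4:**
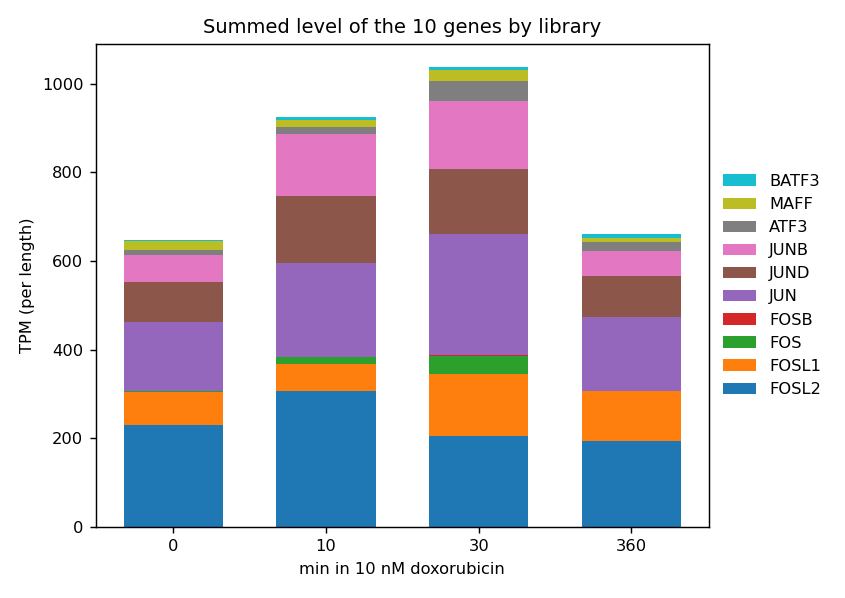
Summed level of the 10 genes in TPM (vertical axis, from 0) by minutes in 10 nM doxorubicin, 1 library per bar, split by gene. The sum ran from 648 TPM at 0 min to 1038 at 30 min and back to 661 at 360 min, and FOSL2 and JUN were the tallest segments in all 4 bars. FOSL1 is drawn without its assembled model.

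Single transcripts were estimated by the authors from reads that the transcripts share, so their values are less certain than the sums. FOS-201, the full-length FOS transcript, held 47.8% of FOS at 10 min and 58.6% at 30 min (4.10 and 14.1 CPM), and 8 of the 10 annotated FOS transcripts had counts at 30 min. The shorter FOS-206 and FOS-204 followed with 3.62 and 3.00 CPM at 30 min. FOSB counts at 0 min lay in FOSB-201 alone, at 10 min mostly in FOSB-212 (65.2%) and at 30 min mostly in FOSB-206 (70.0%), each with fewer than 2 CPM. FOSL1-201 held 69.7% to 81.6% of FOSL1, and FOSL2-201 held 99.5% to 99.6% of FOSL2. BATF3-201 held 89.5% to 97.6% of BATF3.

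ATF3 was split between ATF3-202 (ENST00000341491) and ATF3-211 (ENST00000613954), coding transcripts that start at 212608670 and 212608628 on chromosome 1. ATF3-202 stood at 9.28, 1.22, 20.2 and 15.9 CPM at 0, 10, 30 and 360 min. ATF3-211 stood at 1.04, 8.78, 11.5 and 0 CPM. At 10 min ATF3-202 was 7.59-fold lower than at 0 min while ATF3-211 was 8.46-fold (4.85 to 15.3) higher, and the gene as a whole stood at 1.23. At 360 min ATF3-211 was at least 52.8-fold lower than at 30 min, taking a floor of 12 counts for the library with none, and the upper end of the counting interval of the ratio was 0.0235. ATF3-208, a transcript with a retained intron, stood at 0.264, 2.28, 4.23 and 1.81 CPM.

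MAFF showed a similar split. MAFF-201 (ENST00000338483, start at 38201882 on chromosome 22) stood at 19.4, 10.0, 18.7 and 8.0 CPM. MAFF-206 (ENST00000538320, start at 38201932) stood at 0, 4.28, 5.01 and 0 CPM. Against the floor of 12 counts at 0 min MAFF-206 was at least 20.3-fold higher at 10 min and at least 23.8-fold higher at 30 min, and the lower ends of the counting intervals were 16.1 and 18.7. MAFF-201 alone had a 30 min ratio to 0 min of 0.965 (0.812 to 1.15). In these estimates the excess of MAFF at 30 min was assigned to other transcripts, chiefly MAFF-206. MAFF-201 and MAFF-206 start and end close together, and the intervals do not cover error in how shared reads were assigned.

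**Figure D5:**
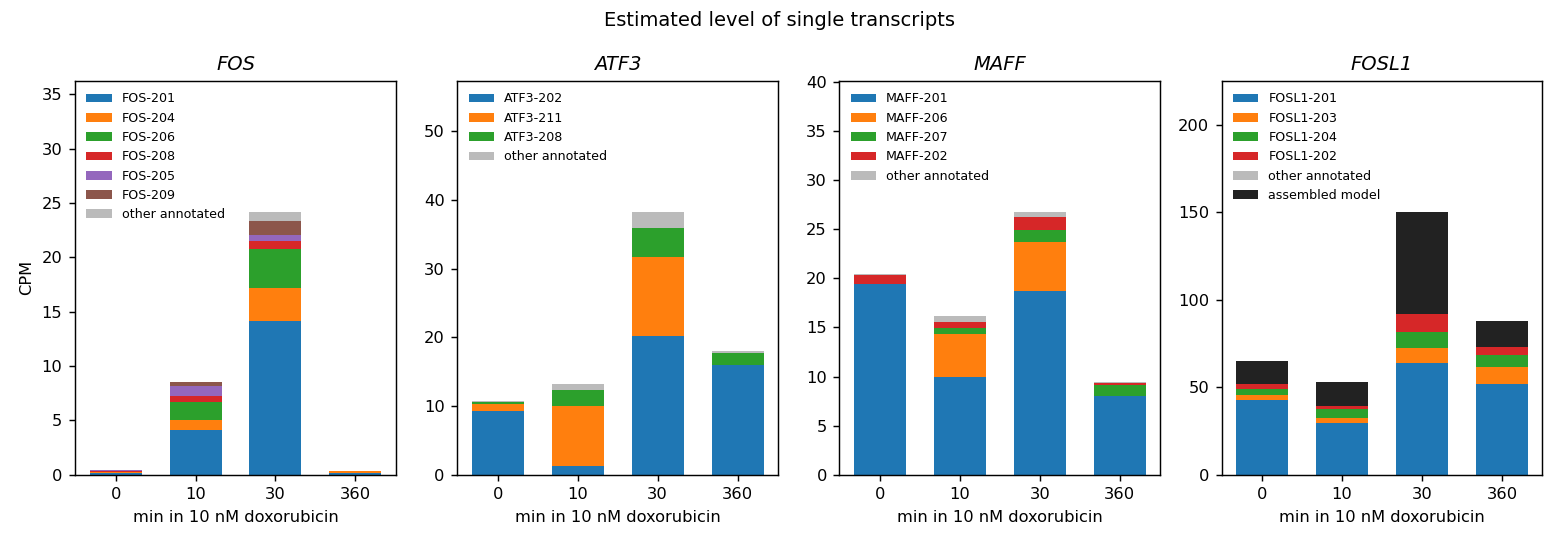
Estimated CPM (vertical axis, from 0, each panel with its own scale) of single transcripts of FOS, ATF3, MAFF and FOSL1, stacked, by minutes in 10 nM doxorubicin. ATF3-211 and MAFF-206 (orange) appear mainly at 10 and 30 min, and the assembled FOSL1 model (black) is tallest at 30 min at 58.1 CPM.

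The lists of genes around the family were described in the same way. Of 34 genes of the MAP kinase and serum response route to AP-1, 33 were tested against 0 min. At 10 min 2 were called higher and 2 lower, at 30 min 0 and 1, and at 360 min 0 and 2, with medians of -0.062, -0.059 and -0.055 on the log2 scale. Over all tested genes the shares called higher and lower were 7.69% and 6.85% at 10 min, 3.55% and 3.25% at 30 min and 3.26% and 3.34% at 360 min, with medians of -0.035, -0.0078 and 0.0089. RPS6KA2, which encodes an RSK kinase, was higher at 10 min (2.20-fold, 1.89 to 2.58), with no matched locus. MAPK14, a p38 kinase gene, was also higher (2.04-fold). The lower calls were BRAF, a kinase upstream of ERK, at all 3 times and MAPK8, which encodes JNK1, at 10 and 360 min, and all of them were lost with locus counts. BRAF went from 15.2 to 5.49, 2.97 and 2.48 CPM in annotated transcripts, but its locus ratio to 0 min was 1.03, 0.958 and 0.972. For MAPK8 the ratios of 0.486 at 10 min and 0.488 at 360 min became 0.679 and 0.813.

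Of 20 regulators of AP-1 activity and turnover 19 were tested. None was called at 10 or 360 min, and at 30 min 1 was called higher and 1 lower. The lower gene was MEN1, whose product menin binds JUND, at 2.63-fold (2.27 to 3.07). Its locus ratio was 0.836, so that call rests on annotated transcripts alone.

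Among 35 other bZIP genes, 5 of 31 tested were called higher and 3 lower at 10 min, 1 of 30 higher and 1 lower at 30 min, and likewise at 360 min. At 30 and 360 min a single call in each direction is near the shares over all tested genes (3.55% and 3.25%, and 3.26% and 3.34%), and at 10 min those shares were 7.69% and 6.85%. CREB3L2, a membrane-bound factor of the secretory pathway, was higher at all 3 times, from 48.1 CPM at 0 min to 160.0, 136 and 162 CPM. The clock output gene DBP was 3.89-fold (3.02 to 5.00) higher at 10 min, and ATF5 was 6.54-fold (4.98 to 8.78) lower, the latter with no matched locus. The other calls at 10 min, named beyond the rule for named genes after their values were seen as MAPK14 was, were ATF6, TEF and MAFG higher and MAFK and NFE2L2 lower. With locus counts the list again gave 5 higher and 3 lower. MAFK, a small MAF like MAFF, was 2.20-fold (1.98 to 2.45) lower at 30 min, although its locus ratio was 0.539, short of the rule. CREB3L1 was 4.23-fold (3.37 to 5.41) lower at 360 min in annotated transcripts, where its locus ratio was 1.18. The list medians were 0.22, 0.17 and 0.031 on the log2 scale at 10, 30 and 360 min, against -0.035, -0.0078 and 0.0089 over all genes tested.

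Of 30 textbook AP-1 targets 18 could be tested at 10 min, with 0 higher and 1 lower, the cytokine gene IL11 (4.52-fold, 4.07 to 5.04). At 30 min 5 of 20 were called higher and none lower, against 3.55% and 3.25% of all tested genes, with a median of 0.13 beside -0.0078. They included the chemokine CXCL8 (7.32-fold, 4.01 to 13.4, from 0.949 CPM), EDN1, which encodes endothelin (3.33-fold, 2.93 to 3.77), and the cytokine LIF. HBEGF and VEGFA, growth factor genes added after their values were seen, were the remaining pair. LIF was 34.2-fold (11.5 to 358) higher in annotated transcripts but 2.06-fold by its locus. LIF and CXCL8 stood at 0.176 and 0.949 CPM at 0 min. In this comparison they reached the 5 CPM minimum only through the 30 min library, in which they were high. At 360 min none of 18 was called. Immediate early genes outside the family, a list chosen when its response in these libraries was already known, gave 4 of 20 higher at 10 min, 11 of 21 at 30 min and 0 of 20 at 360 min, with none lower. The shares called higher over all tested genes were 7.69%, 3.55% and 3.26%. EGR1 led them at 6.66, 85.9, 425 and 9.75 CPM, beside ZFP36 (3.68-fold), DUSP6 (2.64-fold) and, added after its value was seen, MYC at 10 min and KLF2 (7.49-fold) and DUSP5 (3.68-fold) at 30 min. DUSP6 and KLF2 stood at 2.95 and 3.27 CPM at 0 min, so these calls too met the minimum only through the library in which the gene was high.

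Genes of the most similar pattern were sought among 12132 others by the distance between their 3 log2 ratios to 0 min, with 0.5 CPM added. Nearest to FOS were ZNF469 (0.867), XPO4 (1.25) and EGR1 (1.28), yet by locus the 10 min ratios of ZNF469 and XPO4 were 0.600 and 0.688, and EGR1 alone kept its course, at 12.9. Nearest to JUNB were ERLIN1 (0.0535), DUSP6 (0.134) and a gene with no symbol (0.268). ATF3 was closest to UIMC1 (0.227), EDN1 (0.285) and NPPB (0.317), of which UIMC1 had a locus ratio of 0.983 at 30 min, against 3.57 for EDN1 and 3.29 for NPPB. For MAFF they were PEAK1 (0.114), ZIK1 (0.138) and ZMYM6 (0.200), and the locus ratio at 360 min was 1.18 for PEAK1 and 0.466 for ZIK1. With 3 ratios per gene such likeness is a description only.

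The 10 min library stood apart in other ways. Counts were found at 26417 annotated genes there, against 25037 to 25111 in the others. Fibroblast and matrix markers summed to 19888 CPM there, against 15116, 12589 and 12743 CPM at 0, 30 and 360 min, with LUM and DCN at 0 throughout. Endothelial markers summed to 49.8 CPM, against 22.2 to 26.3 in the other libraries, with KDR at 0 throughout and PECAM1, CDH5 and TEK below 1 CPM. Immune markers summed to 66.5 CPM against 34.7 to 38.6, with CD14 at 0. Epithelial markers summed to 474 to 525 CPM in the 4 libraries, with EPCAM, CDH1 and KRT19 below 1 CPM. Cardiomyocyte markers summed to 119 CPM at 0 min and to 217 CPM at 30 min, their highest. Among them NPPB alone went from 37.1 CPM at 0 min to 122 CPM at 30 min. The part of these shifts in the results above was not tested.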

How the data were processed

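The authors deposited estimated counts for loci and for transcripts, with no scaling by depth or length. All values were whole. HISAT2, DESeq2 and GRCh38 are named without versions per the submitters' processing notes, and the sources used here do not give the counting tool, annotation release or use of strand. Annotated transcripts were summed per gene by GENCODE 29, in which 197268 of 215876 ENST rows matched. They hold 88.8% of counts, and assembled models hold 11.1%. Loci were matched to genes where their counts, less assembled models, equalled the annotated sum (18209 genes). In genes with 1 transcript 32.4% of 9164 low values (1 to 24) were multiples of 4, where even spacing gives 25%, so intervals used counts divided by 4 and rounded. A library with 0 counts entered ratios at 3 read pairs (12 counts, 0.211 to 0.218 CPM). The labels mention no molecular identifiers, and floors and intervals cover counting error only.

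Levels were scaled by column totals, and ratios carry 95% Clopper-Pearson intervals from SciPy 1.17.1. With 1 library per time no edgeR or DESeq2 test was run. TMM factors (edgeR 4.0.16), median-of-ratios factors (DESeq2 1.42.0, R 4.3.3), locus counts, TPM, other minimums, other folds and another baseline were tried. Python 3.11.15 was used with pandas 2.3.3. The 10 genes are always named. From each list up to 3 called genes with the largest ratios are named at each time, and for each member with at least 5 CPM that was called against 0 min the 3 genes of nearest pattern. Values of some list genes are not reported here. The members and lists were chosen with earlier results of these data known.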

Additional observations from a re-analysis of the deposited data

How the results depend on the processing

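Of 84 counts of called family genes under the alternatives, 79 stayed within 1.5 times the reported count and none reversed. The exceptions were as follows. At 360 min against 0 min 1 gene was called higher, in place of 0, with a minimum of 1 CPM, with no minimum and with TPM (BATF3 each time) and at 1.5-fold (ATF3). At 30 min against 0 min 6 were called higher, in place of 3, at 1.5-fold. Of 220 single ratios 202 stayed within the counting interval of the reported ratio, and no ratio called in the report turned. With locus counts FOSL1 passed 2-fold at 30 min (2.30). The 360 min library as baseline turned 5 ratios that were not called. At 10 min MAFF went from 0.793 to 1.72 (1.38 to 2.15), ATF3 from 1.23 to 0.730 (0.599 to 0.886) and BATF3 from 1.44 to 0.627. At 30 min BATF3 went from 1.80 to 0.781 and FOSL2 from 0.900 to 1.07 (1.04 to 1.11). With that baseline the 30 min ratio was 63.4 for FOS, 2.83 for JUNB, 2.12 for ATF3 and 2.83 for MAFF.

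Counts over all genes moved more. Higher and lower calls at 30 and 360 min against 0 min were 409 and 375, and 375 and 384. With locus counts they were 256 and 225, and 191 and 200. With a minimum of 1 CPM they were 743 and 728, and 632 and 718, with no minimum 996 and 929, and 797 and 929, and at 1.5-fold 953 and 883, and 773 and 805. At 10 min the 915 higher calls became 1826 at 1 CPM, and the 915 and 815 became 2283 and 1316 with no minimum and 1960 and 2026 at 1.5-fold. From 10 to 30 min 817 and 897 became 1287 and 2196 with no minimum and 1994 and 1966 at 1.5-fold, and the lower calls 1772 at 1 CPM. From 30 to 360 min 375 and 401 became 202 and 234 with locus counts, 646 and 759 at 1 CPM, 826 and 986 with no minimum and 873 and 914 at 1.5-fold. Genes without a matched locus kept their annotated sums there, and the cause of the lower counts was not tested.

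No paired analysis was possible because each time has 1 library. Depth limits FOS at 0 and 360 min, FOSB and BATF3, which rest on 2 to 53 read pairs. The 0 min library enters 3 of the 5 comparisons.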

Other observations

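ATF3 and BATF3 are near neighbours on opposite strands of chromosome 1, with 65.6 kb between their 3′ ends. Their levels took different courses: ATF3 was highest at 30 min (38.2 CPM) and BATF3 at 360 min (3.84 CPM). FOSB, JUNB and JUND all lie on chromosome 19, where JUNB and JUND had nearly level values at 10 and 30 min (108 and 123 CPM, and 119 and 121 CPM) and FOSB was higher at 30 min (1.99 CPM) than at 10 min (0.827 CPM).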
